A study of Homo sapiens with 27 samples.

Results

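Gene expression was compared between control SKBR3 cells and control MDA-MB-453 cells, using the 6 libraries made after transfection with a control siRNA out of 27 libraries in the whole series. Members were taken by their labels, as the 3 libraries of each of these lines that received siNS, a non-silencing siRNA. This choice and that of the gene lists were made with earlier results of these data known. SKBR3 and MDA-MB-453 are established human breast cancer lines, and the labels give the cell type of both as breast epithelial. All 6 cultures were reverse transfected with siNS and harvested 48 h later, so both groups carry the transfection, and no untransfected cells were analysed here. The other libraries of the 2 lines, 3 per line transfected with an siRNA pool against TLE3 (siTLE3) and 3 per line with one against FOXA1 (siFOXA1), were used only to see whether a line difference recurs in libraries that took no part in the control comparison. Each line stands for 1 tumour, so a difference between them is a difference between 2 cell lines and not between classes of tumour.

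SKBR3 is known for amplification of ERBB2, which encodes the receptor tyrosine kinase HER2. MDA-MB-453 is known as a line of the molecular apocrine kind. In luminal breast epithelium the pioneer factor FOXA1 opens chromatin for steroid receptors and for GATA3, and TLE3, a corepressor of the Groucho family, is recruited by DNA-binding factors that include FOXA1. The series was designed to find the genes that depend on TLE3 and FOXA1 in several luminal lines, and the control libraries show the 2 backgrounds in which those depletions were made.

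The 6 control libraries held 18860891 to 22381128 counted reads. Levels are given as CPM, each read count as a share of the TMM-scaled library size in the usual per-megaread unit, and differences as the log2 fold change of SKBR3 over MDA-MB-453 with its standard error (SE), so that a positive value means higher in SKBR3. Values per library are listed in the order SKBR3 1, 2 and 3 and MDA-MB-453 1, 2 and 4, the numbers of the deposited columns. SKBR3 library 3 stood apart: 584 and 528 genes differed more than 2-fold between it and SKBR3 libraries 1 and 2, against 40 between libraries 1 and 2 and 41 to 53 between MDA-MB-453 libraries. When genes were split by length into 4 equal bins, its levels were higher than the mean of libraries 1 and 2 in the bin of shortest genes, by a median of 0.33 (log2), and lower in the bin of longest genes, with a median difference of -0.42. Mitochondrially encoded genes took 1.58% to 1.68% of reads in SKBR3 and 4.11% to 4.48% in MDA-MB-453. Of the 18 markers of fibroblasts, leukocytes, endothelium and other tissues that were looked up, 5 passed the count filter, namely COL1A1, COL1A2, ACTA2, VWF and CDH5. Summed over the list the level was 35.7 to 49.7 CPM in SKBR3 and 151 to 171 CPM in MDA-MB-453, where COL1A1 made up most of it. PTPRC and CD3E, listed for SKBR3 alone, reached at most 0.309 CPM in any SKBR3 library, and no table listed CD68, PECAM1 or HBB. ALB, a liver marker, was listed by MDA-MB-453 tables alone, at up to 11.8 CPM. In cultures, as in any bulk sample, fewer cells with a transcript and less of it per cell cannot be told apart.

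The 2 lines differed across most of the transcriptome. Of 14871 genes tested, 9876 (66.4%) passed an adjusted p of 0.05, with 4982 (33.5%) higher in SKBR3 and 4894 (32.9%) higher in MDA-MB-453. A difference of at least 2-fold was called for 3156 genes (21.2%) toward SKBR3 and for 3135 (21.1%) toward MDA-MB-453. The libraries of the lines did not overlap for 10765 genes (72.4%), with SKBR3 the higher for 35.8% of genes and MDA-MB-453 for 36.5%, and 994 genes had an absolute log2 fold change of at least 5. With library totals in place of TMM factors the median of all genes moved from -0.01 to -0.26 and the called genes split 3999 to 5950, so that 40.2% of them lay toward SKBR3 in place of 50.4%. Because so many genes differed, counts within a gene group are read against these shares. The labels call the libraries biological replicates and do not say whether they came from separate cultures, so the p-values reflect spread among these libraries alone, which may be technical.

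The targets of the siRNA pools, the receptors that define the lines and the steroid receptors were examined first. ERBB2 (hg19 chr17:37844167-37886679, plus strand) was measured at 7471, 7623 and 7793 CPM in SKBR3 and at 963, 998 and 999 CPM in MDA-MB-453. Every SKBR3 library was far above every MDA-MB-453 library, with a log2 fold change of 2.95 (SE 0.12, adjusted p = 5.3e-08). Per length, ERBB2 stood at 1423 ± 38.9 FPKM in SKBR3 and at 218 ± 1.96 FPKM in MDA-MB-453 (SD, n = 3 each), so the lower of the lines still had an abundant ERBB2 transcript.

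FOXA1 was read at 419, 408 and 356 CPM in SKBR3 and 685, 711 and 768 CPM in MDA-MB-453. It was thus higher in each MDA-MB-453 library (log2 fold change -0.87, SE 0.12, adjusted p = 0.00017). TLE3 was close to equal, at 112, 116 and 113 CPM in SKBR3 and 132, 147 and 152 CPM in MDA-MB-453. Its log2 fold change of -0.34 (SE 0.12) passed with an adjusted p of 0.027, but the largest adjusted p when 1 library was left out was 0.133, so the call rests on the full set of libraries. ESR1, the estrogen receptor gene, was at 0.981, 1.03 and 0.664 CPM in SKBR3 and 0.486, 0.134 and 0.399 CPM in MDA-MB-453. Both lines were near the lower limit of the assay, and the ESR1 call toward SKBR3 (log2 fold change 1.37, SE 0.51, adjusted p = 0.038) reached an adjusted p of 0.129 when 1 library was left out. PGR, the progesterone receptor gene, appeared in the MDA-MB-453 tables alone, with 2, 1 and 3 reads.

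**Figure D1:**
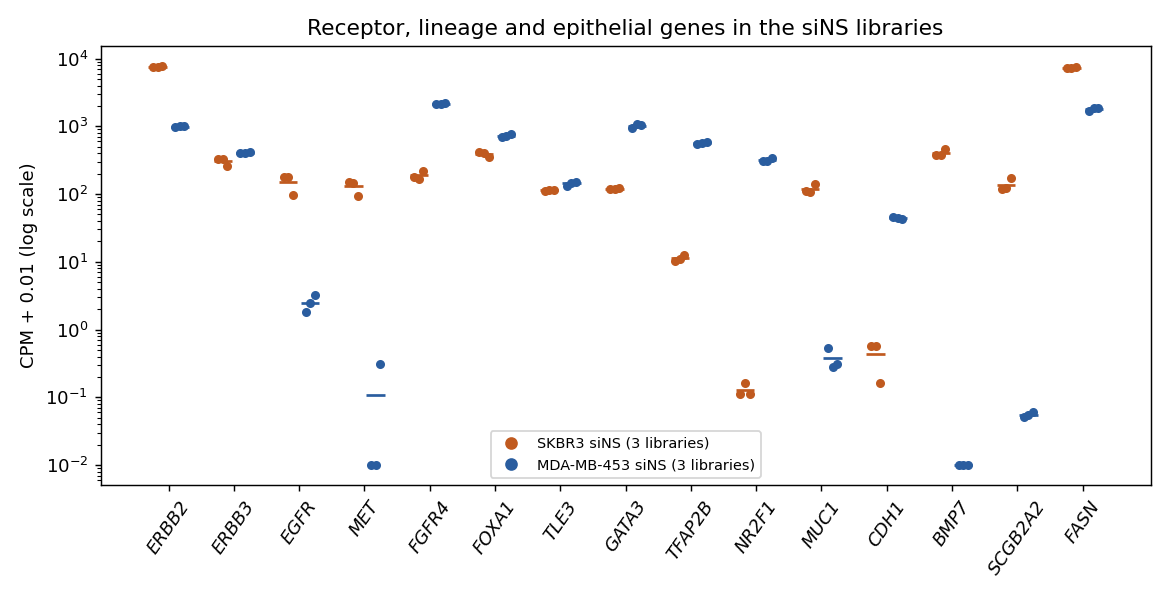
Levels of 15 receptor, lineage and epithelial genes in the 6 control libraries, as CPM + 0.01 on a log scale. Points are libraries and short lines are group means; ERBB2, EGFR, MET, MUC1, BMP7, SCGB2A2 and FASN lie higher in SKBR3, whereas FGFR4, GATA3, TFAP2B, NR2F1 and CDH1 lie higher in MDA-MB-453 and TLE3 differs little (log2 fold change -0.34).

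The gene neighbourhood of ERBB2 on 17q12-q21 was higher in SKBR3 over a continuous stretch. Of 33 tested genes of the list, 27 were higher in SKBR3 and 4 were higher in MDA-MB-453, with a median log2 fold change of 2.69 against -0.01 for all genes. GRB7, an adaptor that binds HER2 and lies beside it, was at 653 ± 137 CPM in SKBR3 and 65.2 ± 6.10 CPM in MDA-MB-453 (SD, n = 3 each). CDK12, a kinase of the transcribing RNA polymerase, was at 2027, 1944 and 1070 CPM in SKBR3 and at 119, 117 and 122 CPM in MDA-MB-453. SKBR3 library 3 was again the low member of its group, and the log2 fold change was 3.82 (SE 0.24), or 4.05 without that library. FBXL20 had a log2 fold change of 3.71, and CDC6, which loads the replicative helicase, one of 3.54. PPP1R1B, a phosphatase inhibitor, was at 34.4 CPM against 0.218 CPM and GSDMB, a gasdermin, at 587 CPM against 4.01 CPM. TNS4, a tensin, was at 98.9 CPM in SKBR3 and had 3 reads in all in MDA-MB-453, a CPM ratio of 2215 with a 95% counting interval of 758 to 10740. RPL19 was the gene with the highest level per length in SKBR3, at 11670 ± 2795 FPKM against 389 FPKM in MDA-MB-453 (SD, n = 3). TOP2A, encoding topoisomerase II alpha, sits farther along and differed less, at 262, 251 and 159 CPM against 71.4, 111 and 89.5 CPM (log2 fold change 1.31, SE 0.22).

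The stretch had visible edges. Among protein-coding genes starting 1 to 2.5 Mb before ERBB2, 0 of 11 were higher in SKBR3 and 6 were higher in MDA-MB-453. Within 1 Mb on either side, 33 of 43 were higher in SKBR3, with a median log2 fold change of 2.40. From 1 to 2.5 Mb after ERBB2 the count was 21 of 27 (median 2.38), and from 2.5 to 5 Mb it was 19 of 53 (median 0.15). Listed genes just before the stretch, MLLT6 (-0.94), PCGF2 (-2.45) and LASP1 (-1.31), were higher in MDA-MB-453. IGFBP4, inside it, was also higher in MDA-MB-453, at 1.15 CPM in SKBR3 and 5.55 CPM in MDA-MB-453 (log2 fold change -2.27), so elevation was not uniform. DNA copy number was not measured here, and its part in these levels was not tested.

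**Figure D2:**
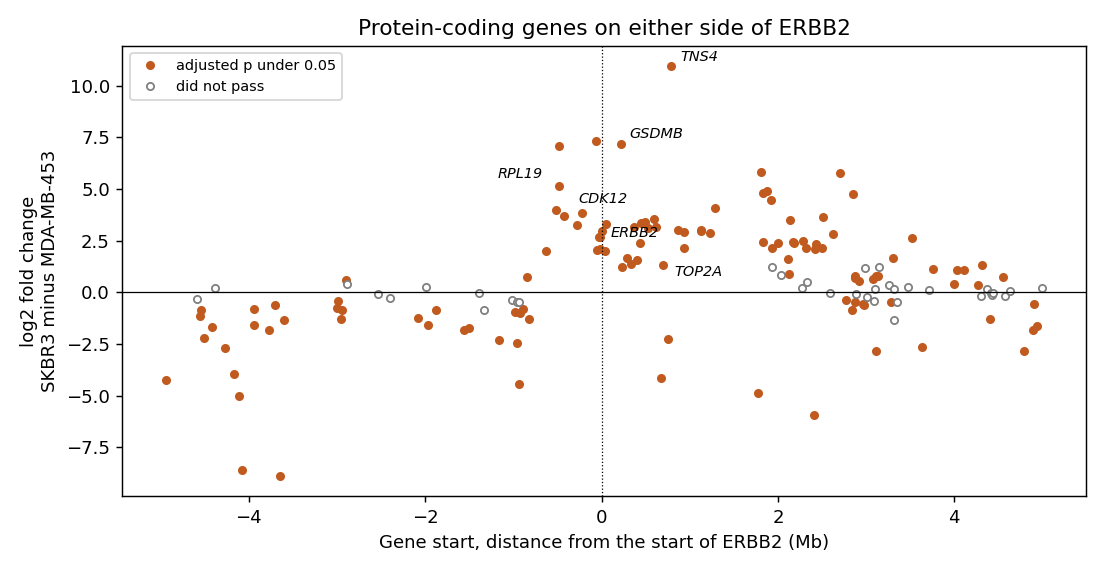
Log2 fold change of SKBR3 over MDA-MB-453 for each tested protein-coding gene within 5 Mb of ERBB2, against the distance of its start from that of ERBB2 in Mb. Filled points passed an adjusted p of 0.05; genes with no reads in a line are drawn at the bound from a floor of 3 counts. Within 1 Mb 33 of 43 genes were called higher in SKBR3, and 1 to 2.5 Mb before ERBB2 none of 11 was.

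Receptor tyrosine kinases and their ligands divided between the lines gene by gene. Of 13 tested ERBB receptors and ligands, 6 were higher in SKBR3, 3 in MDA-MB-453 and 4 did not pass. Over all genes 33.5% were called toward SKBR3 and 32.9% toward MDA-MB-453. EGFR was at 178, 180 and 95.3 CPM in SKBR3 and at 1.78, 2.45 and 3.19 CPM in MDA-MB-453, with no overlap (log2 fold change 5.94, SE 0.33). Its ligand EGF followed the same order, at a mean of 60.3 CPM against 1.46 CPM, as did EPGN (4.80) and HBEGF (2.98) on the log2 fold change scale. TGFA had no read in SKBR3 and a mean of 1.73 CPM in MDA-MB-453, at least 34.2-fold higher by a floor of 3 counts over the group. NRG3, a neuregulin, had 2 reads in SKBR3 and 8.70 CPM in MDA-MB-453, a CPM ratio of 253 with a 95% counting interval of 69.7 to 2093. ERBB3, the kinase-impaired partner of HER2, was abundant in both lines, at 305 ± 35.9 CPM and 404 ± 6.27 CPM (SD, n = 3 each; log2 fold change -0.40, adjusted p = 0.017); the largest adjusted p with 1 library left out was 0.0693.

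Of 26 other receptor tyrosine kinases tested, 11 were higher in SKBR3 and 10 in MDA-MB-453, with a median log2 fold change of 0.01. The called shares over all genes were 33.5% and 32.9%. MET, the hepatocyte growth factor receptor, was at 150, 147 and 94.3 CPM in SKBR3, while MDA-MB-453 had reads in library 4 alone, at 0.299 CPM. The FGF receptors did not share a direction. FGFR2 (48.3 CPM against 2.13 CPM) and FGFR3 (26.5 CPM against 0.750 CPM) were higher in SKBR3. FGFR4 was at 189 ± 27.5 CPM in SKBR3 and 2137 ± 42.0 CPM in MDA-MB-453 (SD, n = 3 each; log2 fold change -3.50, SE 0.14, adjusted p = 7.0e-08), where it exceeded ERBB2 per length, at 744 FPKM against 218 FPKM. RET (0.240 CPM against 50.2 CPM) and the Wnt co-receptor ROR2 (3 reads against 28.0 CPM) were also higher in MDA-MB-453. IGF1R (0.05), INSR (-0.67), EPHB3, EPHA1 and RYK did not pass.

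Feedback genes of the MAPK pathway were mostly higher in MDA-MB-453: 14 of 22 tested, with 4 higher in SKBR3 and a median log2 fold change of -1.25. These genes are transcribed when ERK is active and many of their products restrain it. Called shares over all genes were 32.9% toward MDA-MB-453 and 33.5% toward SKBR3. DUSP6, an ERK phosphatase, was at 0.723, 1.59 and 1.12 CPM in SKBR3 and at 191, 231 and 218 CPM in MDA-MB-453. The groups lay far apart with no overlap (log2 fold change -7.53, SE 0.25, adjusted p = 2.6e-08). SPRED1 (-2.64), SPRY1 (-2.25), DUSP10 (-2.27) and the ETS factor ETV5 (-4.93) had the same direction. MYC went the other way, at 385 CPM in SKBR3 and 60.0 CPM in MDA-MB-453 (log2 fold change 2.68, SE 0.14), and DUSP4, ETV4 and FOSL2 were the other members called higher in SKBR3, the call of FOSL2 reaching an adjusted p of 0.0582 when 1 library was left out. FOS, JUND, IER3 and PHLDA1 did not pass.

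In the PI3K and AKT list 7 of 25 tested genes were higher in SKBR3, 8 in MDA-MB-453 and 10 did not pass. All tested genes together gave 33.5% and 32.9%. PIK3R1, the p85 regulatory subunit, was at 27.4, 25.1 and 12.1 CPM in SKBR3 and 343, 369 and 381 CPM in MDA-MB-453 (log2 fold change -4.08, SE 0.29). The adaptor IRS1 was also higher in MDA-MB-453 (-2.11), whereas the phosphatase genes INPP5D and PHLPP1 (2.27) and the catalytic subunit gene PIK3CD (3.33) were higher in SKBR3. IRS2 was called higher in SKBR3 (1.66, adjusted p = 0.014), a call that was lost without MDA-MB-453 library 2 (adjusted p = 0.0584). The median of the list, -0.03, was 0.10 without SKBR3 library 3.

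Transcription factors of the luminal lineage were more often higher in MDA-MB-453, with 16 of 28 tested against 9 higher in SKBR3 (median log2 fold change -0.60). Over all genes 32.9% were called toward MDA-MB-453 and 33.5% toward SKBR3. GATA3, required for luminal differentiation, was at 119, 118 and 122 CPM in SKBR3 and 945, 1073 and 1040 CPM in MDA-MB-453, again without overlap (log2 fold change -3.09, SE 0.12, adjusted p = 5.0e-08). The AP-2 family was divided. TFAP2B was at 11.3 CPM in SKBR3 and 566 CPM in MDA-MB-453 (-5.65), TFAP2C was at 314 CPM and 73.2 CPM (2.10), and TFAP2A was at 192 CPM and 208 CPM and did not pass. EHF (-4.46) and the alveolar regulator ELF5, with 10.3 CPM in SKBR3 and 3 reads in MDA-MB-453, are both ETS factors and had opposite orders, and ELF3 (2.17) was higher in SKBR3. XBP1 (-0.49) and SPDEF (408 CPM in MDA-MB-453 and 489 CPM in SKBR3, not called) differed little.

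Among 28 tested nuclear receptors 14 were higher in SKBR3, 8 in MDA-MB-453 and 6 did not pass. The called shares of all genes were 33.5% and 32.9%. NR2F1 and NR2F2, the COUP transcription factors, were both higher in MDA-MB-453. NR2F1 was at 0.103, 0.154 and 0.102 CPM in SKBR3 and 302, 308 and 335 CPM in MDA-MB-453, which made it close to a gene expressed in 1 of the lines (log2 fold change -11.29, SE 0.21, adjusted p = 5.0e-09). NR2F2 was at 7.97 CPM against 193 CPM (-4.60). PPARG, the receptor of adipogenesis, had 26.3, 25.4 and 31.6 CPM in SKBR3 and no read in MDA-MB-453, at least 622-fold higher. RARA and THRA, with log2 fold changes of 3.15 each, lie in the 17q stretch described above.

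Apocrine and androgen-responsive genes were divided between the lines. Of 25 tested, 13 were higher in SKBR3 and 11 in MDA-MB-453, against 33.5% and 32.9% of all genes. The median log2 fold change was 0.82 in the control libraries, 0.23 in the siTLE3 libraries and -0.15 in the siFOXA1 libraries. DHRS2, a short-chain dehydrogenase, was at 2390, 2377 and 2961 CPM in SKBR3 and 5.38, 2.41 and 4.04 CPM in MDA-MB-453 (log2 fold change 9.35, SE 0.32). SCGB2A2, which encodes mammaglobin A, was at 118, 121 and 171 CPM in SKBR3 with 3 reads in MDA-MB-453, and HPGD, a prostaglandin dehydrogenase, was at 53.8 CPM with 1 read in MDA-MB-453. APOD (7.56) and SERHL2 (5.68) were in the same direction. Genes higher in MDA-MB-453 included PIP, the prolactin-induced protein (1.35 CPM against 14.5 CPM, -3.42), FKBP5, a co-chaperone of steroid receptors (-1.97), SORD (-1.78) and AZGP1 (-1.06). The UGT2B genes of this list are near-identical paralogs, and UGT2B10, UGT2B15 and UGT2B28 were listed by MDA-MB-453 tables alone. CLDN8 was called higher in SKBR3 (1.56), a call lost without SKBR3 library 1 (adjusted p = 0.0545).

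Epithelial identity genes were expressed in both lines, as the labels imply, with a few exceptions of large size. EPCAM was at 390 CPM and 480 CPM (-0.30), a call that was lost when 1 library was left out (largest adjusted p = 0.192), and CLDN7, OCLN, ST14, RAB25 and PRSS8 did not differ at the threshold. The list as a whole had 8 of 19 tested genes higher in SKBR3 and 6 higher in MDA-MB-453, against 33.5% and 32.9% of all genes. Its median of 0.11 became -0.13 under library totals. CDH1, which encodes E-cadherin, was at 0.568, 0.566 and 0.153 CPM in SKBR3 and 45.6, 44.6 and 42.4 CPM in MDA-MB-453 (log2 fold change -6.67, SE 0.29, adjusted p = 9.1e-08). SKBR3 was thus nearly without the CDH1 transcript and MDA-MB-453 carried a moderate level. ESRP1, an epithelial splicing regulator, had the same order (19.2 CPM against 132 CPM, -2.79). MUC1, the membrane mucin, had the opposite order, at 110, 106 and 138 CPM in SKBR3 and 0.526, 0.268 and 0.299 CPM in MDA-MB-453 (log2 fold change 8.29, SE 0.26, adjusted p = 1.9e-08).

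The other classical cadherins CDH2 (-4.60) and CDH3 (-6.30) were low and also higher in MDA-MB-453, while CDH5 (VE-cadherin), an endothelial gene, was at 6.82 CPM in SKBR3 with no read in MDA-MB-453, at least 153-fold higher. Of the other endothelial markers, VWF was also called higher in SKBR3, at 4.16 CPM against 0.653 CPM (2.66), KDR had no read in either line and no table listed PECAM1; the part of such cells was not tested. Of the desmosomal genes, DSP (2.90), DSC2 (2.13), PKP2 (3.88), PKP1 (3.48) and JUP (2.15) were higher in SKBR3. In the list of cadherins, catenins and desmosomal genes 11 of 20 tested were higher in SKBR3 and 4 in MDA-MB-453. CTNNB1, CTNND1, CTNND2, EVPL and PERP did not pass. Tight junction genes differed less, with 9 of 17 tested higher in SKBR3 and 4 in MDA-MB-453 (median 0.48), and CLDN1, at 16.7 CPM in SKBR3 and no read in MDA-MB-453, differed most.

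Keratins, the intermediate filament proteins of epithelia, were mostly higher in SKBR3. Of 15 tested genes of the keratin list, 14 passed toward SKBR3 and KRT17 did not pass (1.24), giving a median log2 fold change of 3.41. Simple-epithelium keratins were abundant in both lines: KRT8 was at 5138, 5148 and 7666 CPM in SKBR3 and 1370, 1193 and 1415 CPM in MDA-MB-453. KRT19 (2.43), KRT7 (2.56) and KRT18 (1.37) had the same order. KRT32, a hair keratin outside the list, was called higher in MDA-MB-453, at 0.676 CPM with 1 read in SKBR3. The hair keratin KRT81 was at 1237, 1247 and 2007 CPM in SKBR3 and 0.647, 0.134 and 0.349 CPM in MDA-MB-453 (log2 fold change 11.90, SE 0.42), and KRT4, typical of stratified mucosa, was at 495 CPM against 0.486 CPM (10.03). KRT81, KRT83 and KRT86 are close in sequence, so reads may be shared between them. SKBR3 library 3 was the highest for each of KRT4, KRT7, KRT8, KRT19 and KRT81, and the median of the list without it was 3.37.

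Interferon-stimulated genes were higher in MDA-MB-453 almost throughout. Type I and type III interferons signal through JAK kinases to a transcription factor complex that includes STAT2 and IRF9 and binds the interferon-stimulated response element in promoters, switching on antiviral genes. Of the 40 genes of the list 39 were tested; 37 were higher in MDA-MB-453 and 0 in SKBR3, with a median log2 fold change of -8.36. ISG20 and IFI35 did not pass in the control comparison (-0.51 and -1.32), and with SKBR3 library 3 left out or with library totals all 39 passed; the groups did not overlap for 37, read against 36.5% of all genes with MDA-MB-453 the higher. Summed over the list, the level was 296, 288 and 284 CPM in the SKBR3 libraries and 19720, 17720 and 20280 CPM in the MDA-MB-453 libraries.

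The response element is visible in the promoters of these genes. Promoters of 300 bases, from 250 before to 50 after the start, were taken from RefSeq (GRCh38.p14) and searched on both strands for the core of the element, GAAA, any 2 letters and GAAA. Of 32 genes of the list with an entry, 20 (62.5%) held the motif, against 3.65% of 27305 genes in the table. Windows of 30 bases are shown for the 8 genes with the highest MDA-MB-453 level among those with a match, because these carry most of the signal; capitals mark the motif, the sequence runs 5′ to 3′ on the strand given, and a match is a description of the letters only.
IFI6, chr1:27672266-27672295, minus strand: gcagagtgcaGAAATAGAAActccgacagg
ISG15, chr1:1013380-1013409, plus strand: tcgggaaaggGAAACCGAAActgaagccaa
IFIT1, chr10:89392510-89392539, minus strand: gaaacctaggGAAACCGAAAggggaaagtg
OAS3, chr12:112938452-112938481, plus strand: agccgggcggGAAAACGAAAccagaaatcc
BST2, chr19:17405735-17405764, minus strand: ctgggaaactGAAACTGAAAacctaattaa
IFIH1, chr2:162318686-162318715, minus strand: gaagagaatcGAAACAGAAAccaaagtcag
IFIT3, chr10:89327865-89327894, minus strand: gaggaaactgGAAAGTGAAActaatttaaa
PARP14, chr3:122680800-122680829, plus strand: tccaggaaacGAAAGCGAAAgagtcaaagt

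Antiviral effectors gave the largest values. ISG15, a ubiquitin-like modifier whose promoter window is shown above, was at 3.04, 2.37 and 5.11 CPM in SKBR3 and 2822, 2476 and 3058 CPM in MDA-MB-453 (log2 fold change -9.63, SE 0.31, adjusted p = 2.2e-08). In MDA-MB-453 it was among the 10 protein-coding genes with the highest level per length, at 4258 ± 424 FPKM (SD, n = 3), together with IFI6 at 3609 ± 448 FPKM. IFIT1, which binds foreign RNA, was at a mean of 0.720 CPM in SKBR3 and 1371 CPM in MDA-MB-453 (-10.88). RSAD2 (viperin), at 0.0516, 0.0515 and 0.102 CPM in SKBR3 and 322, 188 and 270 CPM in MDA-MB-453, and OASL, at 493, 205 and 396 CPM in MDA-MB-453, were near 0 in SKBR3. MDA-MB-453 library 2 was the lowest of its group for RSAD2, OASL, HERC5 (272, 131 and 210 CPM), IFI27 (295, 139 and 285 CPM) and IFIT2 (1276, 572 and 1066 CPM). Even there each of these genes was above every SKBR3 library. HERC6, CMPK2 and IFI44 had 0 to 2 reads in each SKBR3 library. Of the transcription factors of the pathway, STAT2 was at -1.51, IRF9 at -4.72 and IRF7 at -6.01.

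Interferon genes themselves were read in MDA-MB-453, and of these IFNL2 alone was also listed for SKBR3; this set of ligands, receptors and sensors was looked up after the stimulated genes had been seen. IFNB1, encoding interferon beta, had 526, 165 and 297 reads in MDA-MB-453 and was listed in no SKBR3 table. IFNL1, encoding interferon lambda 1, had 85.6, 30.9 and 63.3 CPM in MDA-MB-453 and was likewise absent from the SKBR3 tables, as was IFNL3. IFNL2 and IFNL3 are near-identical copies whose reads may be shared; IFNL2 had 708, 190 and 428 reads in MDA-MB-453 and 0 in each SKBR3 library. Library 2 was the lowest for each of these ligands, as it was for RSAD2, OASL, HERC5, IFI27 and IFIT2. It was the highest of its group for EIF2AK2 (410, 520 and 424 CPM) and ADAR (1482, 1756 and 1589 CPM), which were looked up in the same set. The receptors of these ligands were not called higher in MDA-MB-453. IFNAR1 did not pass (log2 fold change 0.01, SE 0.13, adjusted p = 0.97), and IFNAR2 (2.99), IFNLR1 (4.59) and IL10RB (1.13) were higher in SKBR3.

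Several sensors of foreign nucleic acid were higher in MDA-MB-453, and some of these genes are themselves induced by interferon. MB21D1, which encodes the DNA sensor cGAS, had 0 reads in each SKBR3 library and 13.4, 14.9 and 14.1 CPM in MDA-MB-453. TLR3, which senses double-stranded RNA, had 0, 3 and 0 reads in SKBR3 and 6.23, 6.07 and 5.73 CPM in MDA-MB-453. IFIH1 (-5.05) and DDX58, encoding RIG-I (-7.74), were detected in SKBR3, at 20.1 CPM and 3.17 CPM. The adaptor MAVS (0.49), the kinase TBK1 (0.56) and the factor IRF3 (0.58) were slightly higher in SKBR3. The IRF3 call reached an adjusted p of 0.0893 when 1 library was left out. A further adaptor gene, TMEM173, was higher in MDA-MB-453 (-0.95, adjusted p = 0.015), and IKBKE (-0.13) did not pass. All 6 cultures received siRNA, a double-stranded RNA, and the part of transfection in this difference was not tested.

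**Figure D3:**
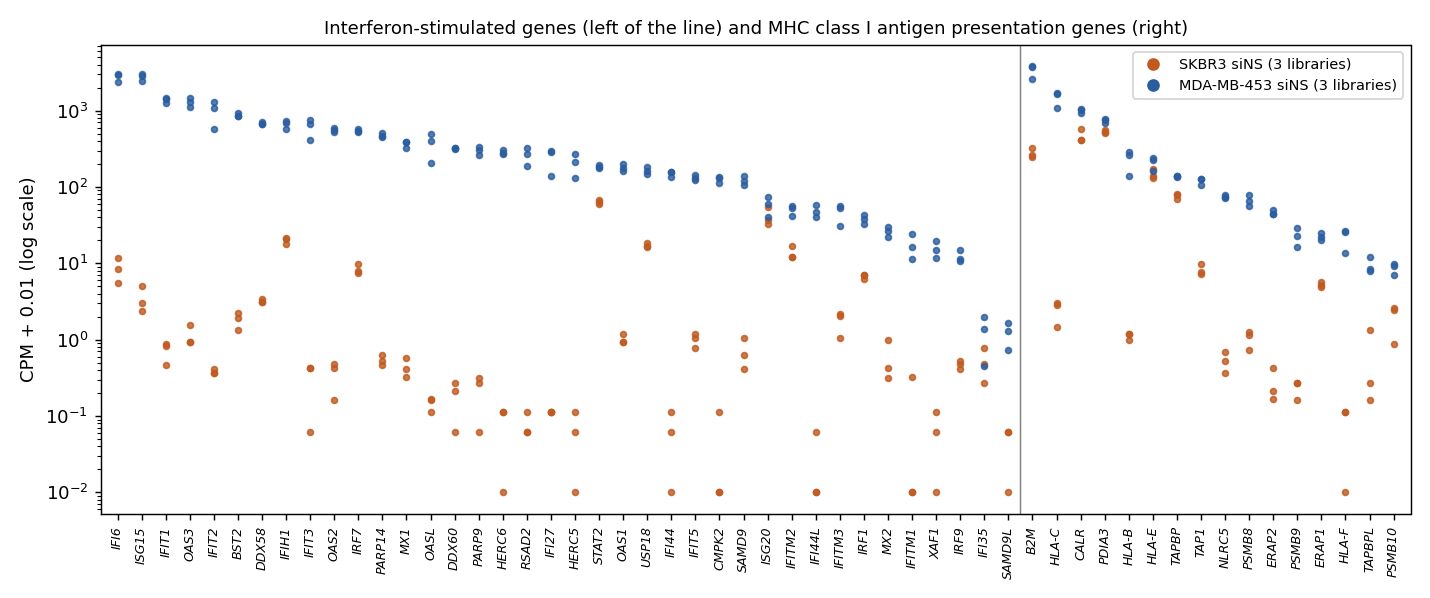
Levels of 38 interferon-stimulated genes and 16 MHC class I antigen presentation genes in each control library, as CPM + 0.01 on a log scale, ordered within each group by the MDA-MB-453 mean. In 36 of the 38 interferon-stimulated genes and 15 of the 16 antigen presentation genes the groups did not overlap, and MDA-MB-453 was the higher. Over all genes tested this held for 36.5%.

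MHC class I antigen presentation genes were higher in MDA-MB-453 without exception among those tested. All 17 passed, at a median log2 fold change of -4.00, and 16 did not overlap between the lines. Over all genes 32.9% were called toward MDA-MB-453, and 36.5% did not overlap with MDA-MB-453 the higher. HLA-C was at 1.45, 2.83 and 3.01 CPM in SKBR3 and 1646, 1075 and 1704 CPM in MDA-MB-453 (log2 fold change -9.24, SE 0.34). HLA-B (-7.68) had the same order. HLA genes are highly polymorphic paralogs, and reads of an allele unlike the reference can be lost or shared, so the levels of single HLA genes are uncertain. B2M, the invariant light chain, is not polymorphic in that way and was at 277 ± 42.0 CPM in SKBR3 and 3372 ± 680 CPM in MDA-MB-453 (SD, n = 3 each; -3.61). NLRC5, the transactivator of class I genes, was at 0.361, 0.669 and 0.511 CPM against 78.3, 74.4 and 71.4 CPM. The immunoproteasome subunits PSMB9 (-6.64) and PSMB8 (-6.01), the peptide transporter TAP1 (-3.87) and the peptidase ERAP2 (-7.45) were also higher in MDA-MB-453, and HLA-E (-0.50) and PDIA3 (-0.48) differed least; the HLA-E call reached an adjusted p of 0.137 when 1 library was left out. The stress ligands MICA (0.462 CPM against 35.2 CPM) and MICB (1 read against 5.57 CPM) had the same order.

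Inflammatory genes outside the interferon pathway were divided, with 8 of 16 tested higher in SKBR3 and 5 higher in MDA-MB-453. The called shares among all genes were 33.5% and 32.9%. TNFAIP2 (6.50) and IL18 (3.09) were higher in SKBR3, and the chemokine genes CXCL16 (-6.48) and CCL28 (-5.04) and the adhesion gene ICAM1 (-3.51) were higher in MDA-MB-453. CX3CL1, encoding fractalkine, was at 62.5, 64.3 and 78.3 CPM in SKBR3 and had no read in MDA-MB-453.

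Genes near-silent in MDA-MB-453 and strong in SKBR3 were led by FBLN2, an extracellular matrix fibulin, and BMP7, a bone morphogenetic protein. FBLN2 was at 389, 383 and 468 CPM and BMP7 at 380, 376 and 460 CPM in SKBR3, with no read of either gene in MDA-MB-453, which makes them at least 9258-fold and 9082-fold higher. The cytosolic malic enzyme ME1 (at least 3242-fold), the TEAD cofactor VGLL1 (at least 3709-fold), the semaphorin SEMA3E (at least 2572-fold) and CITED4 (at least 1767-fold) also had no MDA-MB-453 read. S100A4 had 180, 179 and 307 CPM in SKBR3 and 1 read in MDA-MB-453. In the other direction, 9 of the 12 largest values belonged to genes of the interferon system or to NR2F1, HERC6 included; the remaining genes were ADCY2, an adenylyl cyclase with no SKBR3 read (at least 754-fold), GUCY1A2, a guanylyl cyclase subunit, and ANKRD30A, a breast differentiation antigen, with 1 SKBR3 read each.

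Some genes were listed by the tables of 1 line only, 3192 of them in SKBR3 and 4110 in MDA-MB-453. Most had few reads, since 193 and 105 respectively reached a mean of 1 CPM. SLC1A7, a glutamate transporter, stood far above the rest, at 800, 901 and 934 CPM in MDA-MB-453. Others of MDA-MB-453 were RHOD (72.7 CPM), PPAPDC1A (58.2 CPM), LRP1B (50.2 CPM) and the homeobox gene LHX1 (40.6 CPM). On the SKBR3 side were the transporter SLC5A8 (39.3 CPM), GTSF1, a germline factor (35.4 CPM), RPL39L, a ribosomal protein paralog (30.2 CPM), MAGEA12 (23.7 CPM), PROSER2 (20.7 CPM) and FGD3 (16.4 CPM). A gene absent from a table had 0 reads in the first 2 knockdown columns of that table, but its control reads in that line were not analysed here, so no fold is given for these genes. Among long noncoding genes, LINC00221 (17.5 CPM) and LINC00200 (15.3 CPM) were read in SKBR3 alone and RP11-445F12.1 (7.30 CPM) in MDA-MB-453 alone, while FAM201A was at 0.0686 CPM against 15.7 CPM.

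Cancer-testis genes, normally restricted to the germline and placenta, were mostly read in SKBR3. Of 30 genes in the list 5 were tested and 12 were listed by SKBR3 tables alone. CTAG2 was at 187, 190 and 298 CPM, MAGEA3 at 119, 127 and 158 CPM, MAGEA6 at 113, 105 and 120 CPM and MAGEA1 at 33.2, 31.9 and 39.4 CPM in SKBR3, with no read in MDA-MB-453. MAGEA3 and MAGEA6 are nearly identical in sequence, and the split of reads between them is uncertain. Of the tested genes MAGEC1 had the opposite order (0.189 CPM against 5.02 CPM).

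S100 genes, annexins and secreted proteins were mostly higher in SKBR3. In the list of S100 calcium-binding proteins and annexins 15 of 21 tested were higher in SKBR3 and 3 in MDA-MB-453 (median 1.48), although the median in the siFOXA1 libraries was -0.23. S100A6 was at 1329, 1317 and 2357 CPM in SKBR3 and 3.12, 0.981 and 2.24 CPM in MDA-MB-453 (log2 fold change 9.61, SE 0.46). S100P (7.37), S100A9 (5.89) and the annexin gene ANXA11 (4.97) had the same order. SKBR3 library 3 was the highest for S100A4, S100A6, S100A9 and S100P, and without it 15 genes of the list were called higher in SKBR3 and 5 in MDA-MB-453, with a median of 1.34. Of 15 tested secretory and mucosal genes, 12 were higher in SKBR3 and 1 in MDA-MB-453, and SERPINA1, MUC16 and PIGR, which carries antibodies across epithelium, were at 11.9, 13.4 and 1.54 CPM in SKBR3 with at most 3 reads in MDA-MB-453.

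Genes of cell surface drug targets and immune ligands included GPNMB, at 524, 488 and 434 CPM in SKBR3 and 0.405, 0.357 and 0.199 CPM in MDA-MB-453 (log2 fold change 10.50, SE 0.23). The B7 family genes VTCN1 (308 CPM against 11.5 CPM) and CD276 (15.1 CPM against 0.246 CPM) were also higher in SKBR3. The list was balanced, with 9 of 21 tested in each direction. Of 18 tested integrin and laminin genes 9 were higher in SKBR3 and 5 in MDA-MB-453. ITGB6 (5.54), LAMB1 (3.85) and ITGA5 (3.06) were higher in SKBR3 and ITGA6 was higher in MDA-MB-453, at 6.10 CPM in SKBR3 against 132 CPM (-4.43). Mesenchymal genes gave 6 of 13 tested toward SKBR3 and 5 toward MDA-MB-453, with FN1 (68.2 CPM against 6.62 CPM) and the repressor SNAI1 (3.32 CPM against 0.314 CPM) higher in SKBR3 and COL1A1 higher in MDA-MB-453 (25.9 CPM against 159 CPM).

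Groucho family members other than TLE3 were mostly similar, with TLE4 the exception. TLE4 was at 1.39, 0.514 and 0.766 CPM in SKBR3 and 44.2, 50.2 and 45.3 CPM in MDA-MB-453, without overlap (log2 fold change -5.70, SE 0.28, adjusted p = 1.8e-07). TLE1 (0.14) and AES (-0.05) did not pass, and TLE2 was 0.51 and TLE6 0.98 higher in SKBR3 on the log2 scale. The TLE2 call was lost when 1 library was left out, with a largest adjusted p of 0.117. RUNX2, one of the factors known to recruit Groucho proteins, had 2 reads in SKBR3 and 8.01 CPM in MDA-MB-453, and RUNX1 (-1.18) and HES6 (-1.36) were also higher in MDA-MB-453, whereas HEY1 was higher in SKBR3 (4.22). Of 26 tested NCoR, Sin3 and HDAC corepressor genes 8 were higher in each line and 10 did not pass; HDAC4 and HDAC6 (-1.96 each) and TBL1X (-1.72) were higher in MDA-MB-453 and HDAC9 (5.92), MTA3 (1.92) and HDAC11 (1.88) in SKBR3.

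Developmental signalling differed by member and not by pathway. Of 29 tested Wnt genes 9 were higher in SKBR3 and 14 in MDA-MB-453, and of 19 Notch genes 7 and 8. Over all genes 33.5% were called toward SKBR3 and 32.9% toward MDA-MB-453. WNT5A, a ligand of the non-canonical branch, was at 116, 122 and 74.1 CPM in SKBR3 and 4.45, 3.30 and 4.09 CPM in MDA-MB-453. DKK1, a secreted Wnt inhibitor, was at 4.09 CPM in SKBR3 with 2 reads in MDA-MB-453, and WNT10B had no read in SKBR3 and 2.61 CPM in MDA-MB-453. The Notch ligands JAG2 (3.73 CPM against 168 CPM, -5.49) and DLL1 (-7.00) and the feedback inhibitor NRARP (-4.49) were higher in MDA-MB-453, and DTX4 was higher in SKBR3 (4.42). Of 28 TGF-beta and BMP genes 14 were higher in SKBR3 and 8 in MDA-MB-453. TGFBR1, the type I receptor gene, was at 432 CPM against 21.1 CPM, whereas BMP4 was at 0.479 CPM against 70.6 CPM. HOX genes were tested for 9 of 39. HOXC11 (4.55 CPM against 78.3 CPM) and HOXB2 (no read against 18.9 CPM) were higher in MDA-MB-453, with 6 of the 9 called in that direction. A further 7 HOX genes were listed for SKBR3 alone and 7 for MDA-MB-453 alone, and these entered no test. The calls of HOXC5 and HOXC8 were lost when 1 library was left out, with largest adjusted p of 0.0535 and 0.186.

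Lipid and drug metabolism genes were more often higher in SKBR3. Of 34 genes of cholesterol and fatty acid synthesis 19 were higher in SKBR3 and 6 in MDA-MB-453, against 33.5% and 32.9% of all genes. The median of that list was 0.59 in the control libraries, 0.23 in the siTLE3 libraries and -0.08 in the siFOXA1 libraries. FASN, fatty acid synthase, was at 7232, 7169 and 7463 CPM in SKBR3 and 1676, 1853 and 1842 CPM in MDA-MB-453 (log2 fold change 2.02, SE 0.12), and ACLY, which supplies its acetyl-CoA, had a log2 fold change of 2.40. The desaturases FADS1 (-5.36) and FADS2 (0.462 CPM against 12.5 CPM) had the opposite order. Of 21 genes of fatty acid oxidation and lipid handling 15 were higher in SKBR3 and 1, PPARGC1A, was higher in MDA-MB-453 (0.172 CPM against 2.63 CPM); ACADM (3.75) was among those higher in SKBR3. Of 29 drug metabolism genes 19 were higher in SKBR3 and 3 in MDA-MB-453, with ALDH2 at 257, 250 and 348 CPM against 0.486, 0.178 and 0.149 CPM and ALDH1A3 at 57.5 CPM against no read.

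Enzymes of sugar and amino acid metabolism included some that were nearly exclusive to a line. LDHB, a lactate dehydrogenase subunit, was at 551, 549 and 680 CPM in SKBR3 and 0.283, 0.178 and 0 CPM in MDA-MB-453 (log2 fold change 11.78, SE 0.38). ENO2 (0.498 CPM against 87.9 CPM) and the prolyl hydroxylase EGLN3 (31.4 CPM against 929 CPM, -4.88) were higher in MDA-MB-453. ALDOC (8.12), the lactate exporter SLC16A3 (5.80) and NDRG1 (5.16) were higher in SKBR3, and the glycolysis and hypoxia list stood at 16 of 31 toward SKBR3 and 7 toward MDA-MB-453. PSAT1, which makes serine, was at 63.9, 60.0 and 57.0 CPM in SKBR3 and 0, 0.0446 and 0.149 CPM in MDA-MB-453. ASS1, of arginine synthesis, was at 472 CPM against 25.5 CPM (4.21), GLUL at 1074 CPM against 120 CPM (3.16) and GLS2 at 4.11 CPM against 31.9 CPM (-2.95).

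Cytosolic ribosomal protein genes were higher in SKBR3 as a group. Of 39 tested 36 passed toward SKBR3 and 0 toward MDA-MB-453 (median log2 fold change 1.54), and RPL30, RPS15 and RPS28 did not pass. RPS6 was at 1599, 1628 and 2406 CPM in SKBR3 and 328, 350 and 369 CPM in MDA-MB-453 (log2 fold change 2.43, SE 0.18). The summed level was 58140, 59550 and 94950 CPM in the SKBR3 libraries and 17730, 19510 and 20050 CPM in the MDA-MB-453 libraries, so the groups did not overlap and SKBR3 library 3 was the highest. Without that library the median was 1.26, and with library totals it was 1.28 and 33 genes passed. Ribosomal protein genes are short and have many processed pseudogenes, so their counts depend on how reads that map to several places were treated. Mitochondrially encoded genes had the opposite order, for example MT-CO1 at 4631 CPM against 13820 CPM (-1.58). The part of RNA quality or library preparation in these levels was not tested.

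Mitotic and replication genes were more often higher in MDA-MB-453, and cell cycle drivers and inhibitors were divided. Of 24 tested drivers and inhibitors 10 were higher in MDA-MB-453 and 7 in SKBR3, with 6 and 5 of them at least 2-fold. Over all genes the called shares were 32.9% and 33.5%. Of 32 tested mitotic and replication genes 15 were higher in MDA-MB-453, 5 in SKBR3 and 12 did not pass (median -0.48). At least 2-fold, 2 were higher in MDA-MB-453 and 3 in SKBR3, and the median was 0.87 in the siFOXA1 libraries. KIF11, a spindle motor, was at 29.6 CPM against 76.0 CPM (-1.36) and MCM6 at 63.7 CPM against 129 CPM (-1.02), while AURKA (1.29) and TYMS (0.98) were higher in SKBR3. The cyclin E genes had opposite orders, CCNE1 at 27.4 CPM against 3.26 CPM (3.08) and CCNE2 at 1.85 CPM against 15.8 CPM (-3.09). CDK6 (2.16) and the inhibitor CDKN2B (2.79) were higher in SKBR3. Unfolded protein response genes were balanced, with 9 of 22 tested in each direction, DNAJB9 (1.64) and HERPUD1 (1.29) higher in SKBR3 and DDIT3 (-1.59) higher in MDA-MB-453.

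Neighbouring genes were examined in 12363 overlapping windows of 15 tested protein-coding genes, whose medians ranged from -8.17 to 5.89 with 5% below -0.97 and 5% above 1.28. The highest window was chr1:151735445-153522612 (hg19), with the S100 genes and IVL (median 5.89), followed by 3 windows of the 17q stretch from 37329709 to 39943183 (medians 3.33, 3.00 and 2.91), the last of which holds type I keratin genes and JUP. The lowest window held 15 zinc finger genes at chr19:19976695-23941693, 14 of them higher in MDA-MB-453 (median -8.17). The others were the protocadherin alpha and beta genes at chr5:140071011-140605858 (median -3.86), a further zinc finger cluster at chr19:37178514-38039664 (median -3.79) and the genes from PDP1 to SDC2 on chromosome 8 (median -2.49), where all 15 were called higher in MDA-MB-453. With windows of 25 genes 7 of the 8 medians moved, to 0.73 for the S100 window, to 2.66, 2.95 and 2.44 on 17q, to -2.90 and -2.80 for the zinc finger windows, to -2.57 for the protocadherins and to -2.02 on chromosome 8. In the siFOXA1 libraries the S100 window had a median of 3.14. The zinc finger and protocadherin genes are families of similar sequence, and read sharing between their members was not tested. Of whole chromosomes, chromosome 7 deviated most, with a median of 0.85. The fold change was toward SKBR3 for 74.3% of its 581 genes, counted by sign whether or not they passed the adjusted p threshold.

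Most differences recurred in the knockdown libraries, which share no library with the control comparison. Between the siTLE3 libraries of the lines 9944 of 14575 genes were called (68.2%; 34.3% toward SKBR3 and 33.9% toward MDA-MB-453), and 4122 of the 4982 genes higher in control SKBR3 were called in the same direction, which is 82.7% of the control list and 82.5% of the siTLE3 list. Toward MDA-MB-453 the number was 4065, or 83.1% and 82.2% of the lists, and 4 and 10 genes were called in the opposite direction. Between the siFOXA1 libraries 12075 of 14659 genes were called (82.4%; 41.1% and 41.2%), with 4311 and 4156 shared, or 86.5% and 84.9% of the control lists and 71.5% and 68.7% of the siFOXA1 lists. Opposite calls were more numerous there, 148 and 138. Libraries of a line also varied less in the siFOXA1 fit, with a common coefficient of variation of 0.051. It was 0.175 in the control fit and 0.141 in the siTLE3 fit. The part of this spread in the number of calls was not tested. The interferon-stimulated genes kept their median, at -8.23 and -8.19, and the median of the 17q list was 2.67 and 2.33.

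ERBB2 was at 6139 CPM in SKBR3 and 1329 CPM in MDA-MB-453 in the siFOXA1 libraries (2.21, SE 0.04), and at 6861 CPM and 1119 CPM in the siTLE3 libraries (2.62, SE 0.12). In the siTLE3 libraries TLE3 itself was at 34.4 CPM in SKBR3 and 29.6 CPM in MDA-MB-453, and in the siFOXA1 libraries FOXA1 was at 83.5 CPM and 130 CPM, below the control level in both lines. Among gene groups, keratins had medians of 2.39 and 1.77 and MHC class I genes of -3.46 and -4.76. Whether the line difference of a gene differs between siRNAs was not tested.

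**Figure D4:**
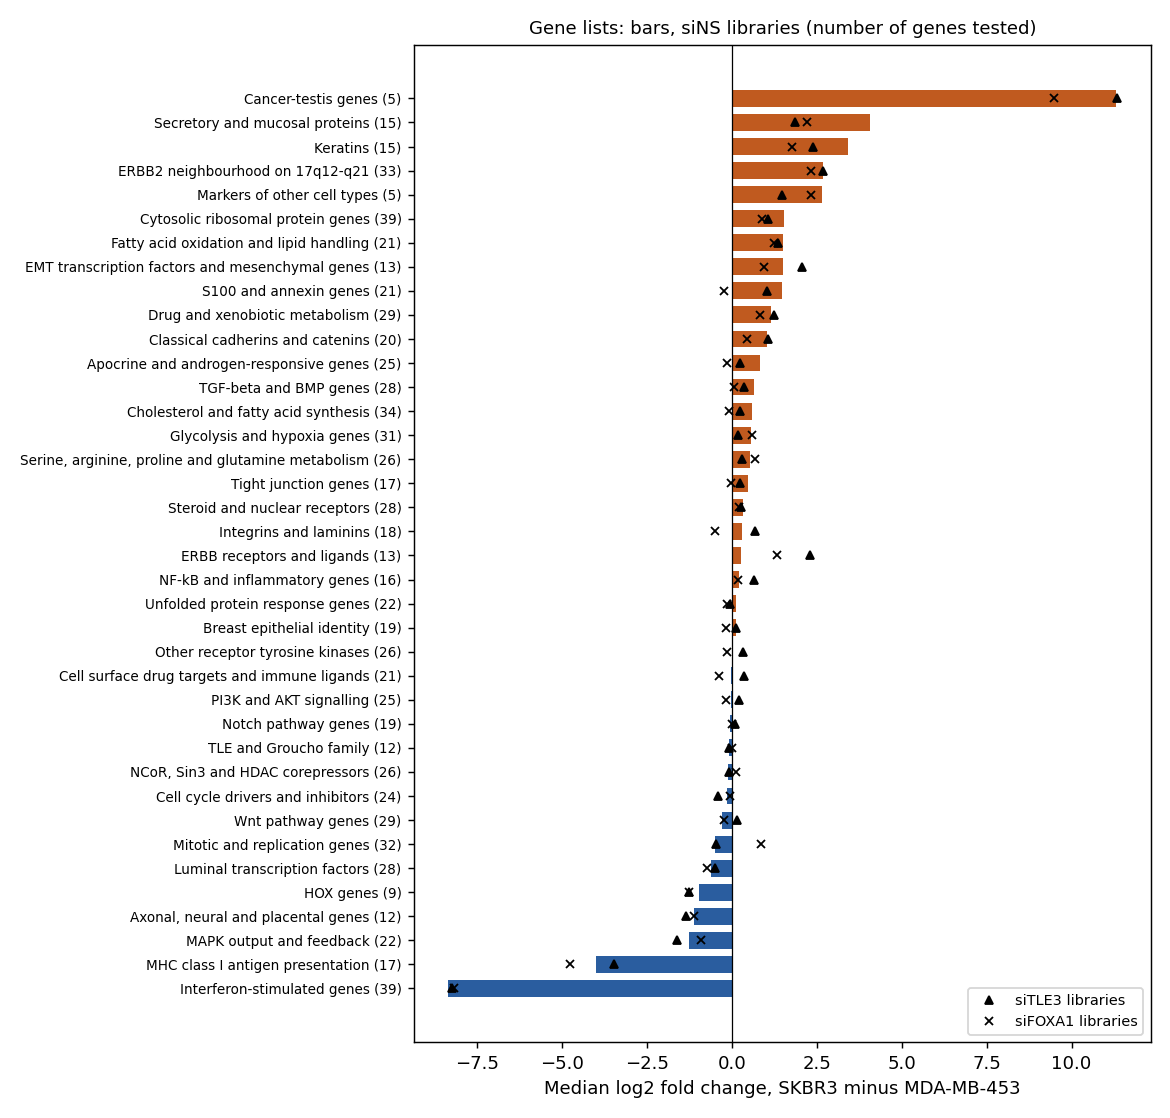
Median log2 fold change of SKBR3 over MDA-MB-453 for the tested members of 38 gene lists. Bars are the control libraries, with genes lacking reads in a line at the bound from a floor of 3 counts, and triangles and crosses are the siTLE3 and siFOXA1 libraries, as fitted; interferon-stimulated and MHC class I genes lie lowest in all 3 and the keratins and the 17q list lie among the highest.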

How the data were processed

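RNA was sequenced from cell cultures 48 h after transfection. The submitters' processing notes name STAR 2.5, HTSeq 0.6.1, DESeq2 and the hg19 build; their settings are not given in the sources used here. The authors deposited raw read counts per gene in each table. They also deposited FPKM. FPKM for all 6 control libraries were recomputed from counts, gene length and library total, and differed by at most 0.0153% from the deposited FPKM of the columns that could be checked. A table lists a gene only with a read in its first 2 knockdown columns, which left out 1379 to 2010 reads of each SKBR3 control library. MDA-MB-453 control columns are numbered 1, 2 and 4 and the labels 1 to 3, so they were assigned to the group only. In all, 30 columns of per-sample values were not used.

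Tables of the lines were joined on gene ID (22453 genes). Counts were tested in R 4.3.3 with edgeR 4.0.16 (TMM, filterByExpr, quasi-likelihood F test, 2-sided, Benjamini-Hochberg over all tested genes, adjusted p under 0.05), separately for the siNS, siTLE3 and siFOXA1 libraries. The step was tested on simulated data. Each SE was derived from that test, as the absolute log2 fold change divided by the square root of the F statistic. Figures used matplotlib 3.10.9 in Python 3.11.15. Where a group had no read, a bound was computed from 3 counts for the whole group; 1 to 3 reads were given as a ratio with a 95% exact interval, and both cover counting error only. The members and gene lists were chosen with earlier results of these data known.

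Named genes are ERBB2, TLE3, FOXA1, ESR1 and PGR; the 12 protein-coding genes highest in each line (at least 20 CPM, no overlap); up to 6 called members of each list with the largest difference, and members that did not pass; the 6 highest protein-coding genes listed by 1 line only; 4 noncoding genes per line of at least 5 CPM; genes of the 4 highest and 4 lowest chromosome windows; and the 10 highest by FPKM. Some genes that the rule names are not reported here. Other list members are named for their role, chosen after their values were seen. Alternatives were RLE or library-total scaling, no filter, DESeq2 1.42.0, 0 reads for unlisted genes, a replicate block, all 18 libraries in 1 fit, a test against 2-fold and leaving out each library.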

Additional observations from a re-analysis of the deposited data

Results flagged for a closer look

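Some named genes had a line difference in the siFOXA1 libraries opposite to that in the control libraries, with all 3 libraries of a line on the other side. TLE3 was higher in MDA-MB-453 under siNS (-0.34) and higher in SKBR3 under siFOXA1, with a log2 fold change of 0.53. KIF11 was 0.19 and MCM6 0.12 under siFOXA1 against -1.36 and -1.02 in the controls. CLDN8 was -3.11 under siFOXA1 against 1.56, and KRT16 was -1.31 against 4.48. The difference between the siRNAs was not tested for these genes.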

How the results depend on the processing

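No count of called genes moved by 1.5 times or more and no named gene changed direction under any alternative run. Leaving out 1 library gave 4541 to 5724 genes higher in SKBR3 and 4374 to 5753 higher in MDA-MB-453, the highest of both without SKBR3 library 3; at 2-fold the ranges were 3161 to 3286 and 3052 to 3384. DESeq2 called 5144 and 4872, entering unlisted genes with 0 reads gave 5214 and 5043, and a test against 2-fold gave 2293 and 2219. A replicate block on the column numbers 1 and 2, the numbers both lines share, gave 5524 and 5306. Deviations of same-numbered control libraries correlated at -0.16 and 0.28, and those of the siTLE3 libraries at -0.03, -0.11 and 0.16, so the numbers were not taken to pair the lines. Among genes the naming rule chose, calls of TLE3, ESR1, IRS2, CLDN8, CLDN9, HOXC5, HOXC8 and ACTB were lost under at least 1 alternative. Of the other genes named, EPCAM, ERBB3, FOSL2, IRF3, HLA-E and TLE2 lost theirs with 1 library left out, a result not given here for TMEM173. Library totals turned the sign of 4 list medians near 0 (breast epithelial identity -0.13, other receptor tyrosine kinases -0.22, inflammatory genes -0.02, unfolded protein response -0.13), and leaving out SKBR3 library 3 turned 3 (PI3K 0.10, Notch 0.07, drug targets 0.10); the cause was not tested. Genes under about 1 CPM rest on few reads, and 3 libraries a line limit the precision of all values.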
